A study of Mus musculus with 14 samples.

Results

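The 9 genes of macrophage heme and iron recycling described here were followed across mouse blood-forming tissues. They were picked by symbol as genes of this pathway, by a rule that holds no threshold on a measured value, but with earlier results of these data known. The list holds the scavenging proteins Cd163, Hp and Hpx, the heme-degrading enzymes Hmox1, Blvra and Blvrb, the metal transporters Slc40a1 and Slc11a1, and the transcription factor Spic. All 9 were present among the 32589 features of the tables from purchased mice and the 19465 features of the tables from a C1qa cross. Levels were read with 10x Genomics Visium, a probe-based spatial assay in which each capture spot covers a small region of several cells, so that a spot is not a cell. The analysis used 14 formalin-fixed, paraffin-embedded sections, 1 library each.

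Macrophages of the red pulp and of erythroblastic islands engulf old red cells and the nuclei that erythroblasts eject. Heme released in the phagolysosome is opened by heme oxygenase to biliverdin, carbon monoxide and iron. Biliverdin is reduced to bilirubin, and the iron leaves the macrophage through ferroportin to be carried back to erythroblasts by transferrin. Hemoglobin and heme that escape into plasma are bound by haptoglobin and hemopexin, plasma proteins made mainly by hepatocytes, and the haptoglobin complex is taken up through CD163.

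Of the 10 groups, 6 were wild-type C57BL/6 mice bought from Jackson, with 1 section each. They were E13.5 fetal liver, E14.5 fetal liver, P8 bone marrow in a section of leg that also held muscle, bone marrow of an 89-week mouse separated by cryosectioning, bone marrow of a 6-month mouse decalcified for 5 days in EDTA, and adult spleen. The other sections came from intercrosses of mice heterozygous for C1qa, which encodes a chain of the complement protein C1q, with 2 sections per group. These were WT and C1qa KO fetal livers at E14.5, each numbered 2 and 4 after the dam, and WT and C1qa KO spleens, each numbered 1 and 2, at 3 months per the labels. The study's text gives these spleens a younger age in one place, and the age is therefore uncertain. Where a group has 1 section, a difference has no replicate check and no p was computed. The purchased and cross sections were processed separately, so their levels stand side by side and were not tested against each other.

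Spots in tissue with at least 1000 detected genes were kept, from 491 to 2320 per section in 13 sections and 15 in the EDTA bone marrow. Kept spots held 37167 UMIs in the EDTA section and 4225805 to 56182915 in the others. C1qa stood at 0.0548 to 0.189 UMIs per 1000000 UMIs of the section (CPM) in the KO sections against 25.8 to 269 CPM in the WT sections of the cross. Tissue markers matched the labels except that a part of several sections was another tissue. Only 29.8% of spots of WT fetal liver 4 and 62.3% of KO fetal liver 4 held at least 0.5% of UMIs from hepatocyte genes, against 94.4% and 96.6% in the livers numbered 2. Exocrine pancreas genes summed to 25964 CPM in KO spleen 2, 3904 in KO spleen 1, 943 in WT spleen 2 and 56.5 in WT spleen 1. Levels are given over all kept spots. The comparisons between tissues and genotypes, the split of spots and the spot correlations are also given for liver spots, for spleen spots with less than 0.5% of UMIs from pancreas genes, or for marrow spots.

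Of the scavenging genes, Cd163 and Hpx separated spleen from fetal liver, in opposite directions, while the levels of Hp in spleen lay within those of fetal liver. Cd163, the receptor that clears hemoglobin bound to haptoglobin, stood at 42.6 CPM in the purchased spleen, 26.0 and 23.9 in KO spleens 2 and 1, and 21.1 and 16.2 in WT spleens 2 and 1. In bone marrow it was 20.4 CPM at 89 weeks and 5.64 at P8. In the cross fetal livers it was 2.20 and 1.30 CPM in KO 4 and 2, and 2.08 and 0.808 in WT 2 and 4. The purchased fetal livers held 9 Cd163 UMIs at E14.5 and 1 at E13.5, or 0.160 and 0.0261 CPM. Every spleen was therefore above every fetal liver, and the lowest spleen was above P8 bone marrow.

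Hpx, which encodes the plasma heme carrier hemopexin, had the reverse order, with 27.2 to 248 CPM in the 6 fetal livers and 0.0910 to 2.36 CPM in the other 7 sections with at least 50 kept spots. Its 2 lowest values, in bone marrow, rested on 1 and 2 UMIs. Hp, which encodes haptoglobin and is also stored in neutrophil granules, was highest in bone marrow, at 77.4 CPM at 89 weeks and 64.5 at P8. It was 42.2 and 2.95 CPM in WT fetal livers 2 and 4, and 24.7 and 4.58 in KO fetal livers 2 and 4, so that the livers numbered 4 lay below the purchased livers at 10.7 and 9.47. In spleen it was 13.7 and 9.58 CPM in WT 2 and 1, 8.44 in the purchased section, and 6.14 and 4.00 in KO 1 and 2. All 12 neighbours in the order of Hp levels lay within 1 pooled replicate SD of each other (1.63 log2 units), whereas this held for 5 of 12 for Cd163 (SD 0.57). Within spleen and within fetal liver the SD was 0.40 and 2.27 for Hp, and 0.20 and 0.78 for Cd163.

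Among the heme-degrading genes, Hmox1, the inducible heme oxygenase, was highest in spleen and Blvrb in fetal liver. Hmox1 was 1100 and 617 CPM in WT spleens 1 and 2, 566 and 586 in KO spleens 1 and 2, and 384 in the purchased spleen. The cross fetal livers held 363 and 128 CPM in WT 2 and 4, and 411 and 248 in KO 2 and 4. The purchased livers held 95.8 CPM at E13.5 and 85.7 at E14.5, and bone marrow 245 at 89 weeks and 34.0 at P8. The spleen and fetal liver ranges of Hmox1 therefore overlapped, with KO fetal liver 2 above the purchased spleen.

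Blvrb, a biliverdin and flavin reductase that is abundant in red cells, was 1467 and 1426 CPM in the purchased E13.5 and E14.5 livers, 1157 and 758 in WT fetal livers 2 and 4, and 1411 and 1116 in KO fetal livers 2 and 4. The spleens held 682 and 354 CPM in WT 1 and 2, 291 in the purchased section, and 242 and 239 in KO 1 and 2. Bone marrow lay between them at 545 CPM at 89 weeks and 538 at P8. Blvra, the main adult biliverdin reductase, varied least of the 9, from 48.9 CPM at P8 to 163 in WT spleen 1, a 3.34-fold range. Of its 12 neighbours in level, 9 lay within 1 pooled replicate SD (0.16 log2 units).

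The metal transporters and Spic were highest in spleen. Slc40a1, which encodes the iron exporter ferroportin, was 341 and 324 CPM in WT spleens 1 and 2, 302 in the purchased spleen, and 298 and 269 in KO spleens 2 and 1. It lay between 52.3 and 189 CPM in the fetal livers, at 111 in 89-week and 46.1 in P8 bone marrow, so that no other section reached the spleens. All 12 neighbours in its order lay within 1 pooled replicate SD (0.82 log2 units). This SD was 0.082 within spleen and 1.16 within fetal liver, so the pooled value mostly reflects the livers. The lowest spleen, KO 1, lay 0.51 log2 units above the next section, KO fetal liver 2. Slc11a1, which pumps divalent metals out of the phagosome, was 94.2 CPM in the purchased spleen, 33.8 to 44.2 in the cross spleens, 4.29 to 16.6 in the fetal livers, 19.8 at 89 weeks and 11.7 at P8. Spic, the transcription factor needed for red pulp macrophages, was 121 CPM in the purchased spleen, 63.7 and 57.9 in KO spleens 2 and 1, and 55.3 and 35.7 in WT spleens 1 and 2. It was 1.87 to 13.5 CPM in the fetal livers, 5.23 at P8 and 3.32 at 89 weeks, the last from 28 UMIs.

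**Figure D1:**
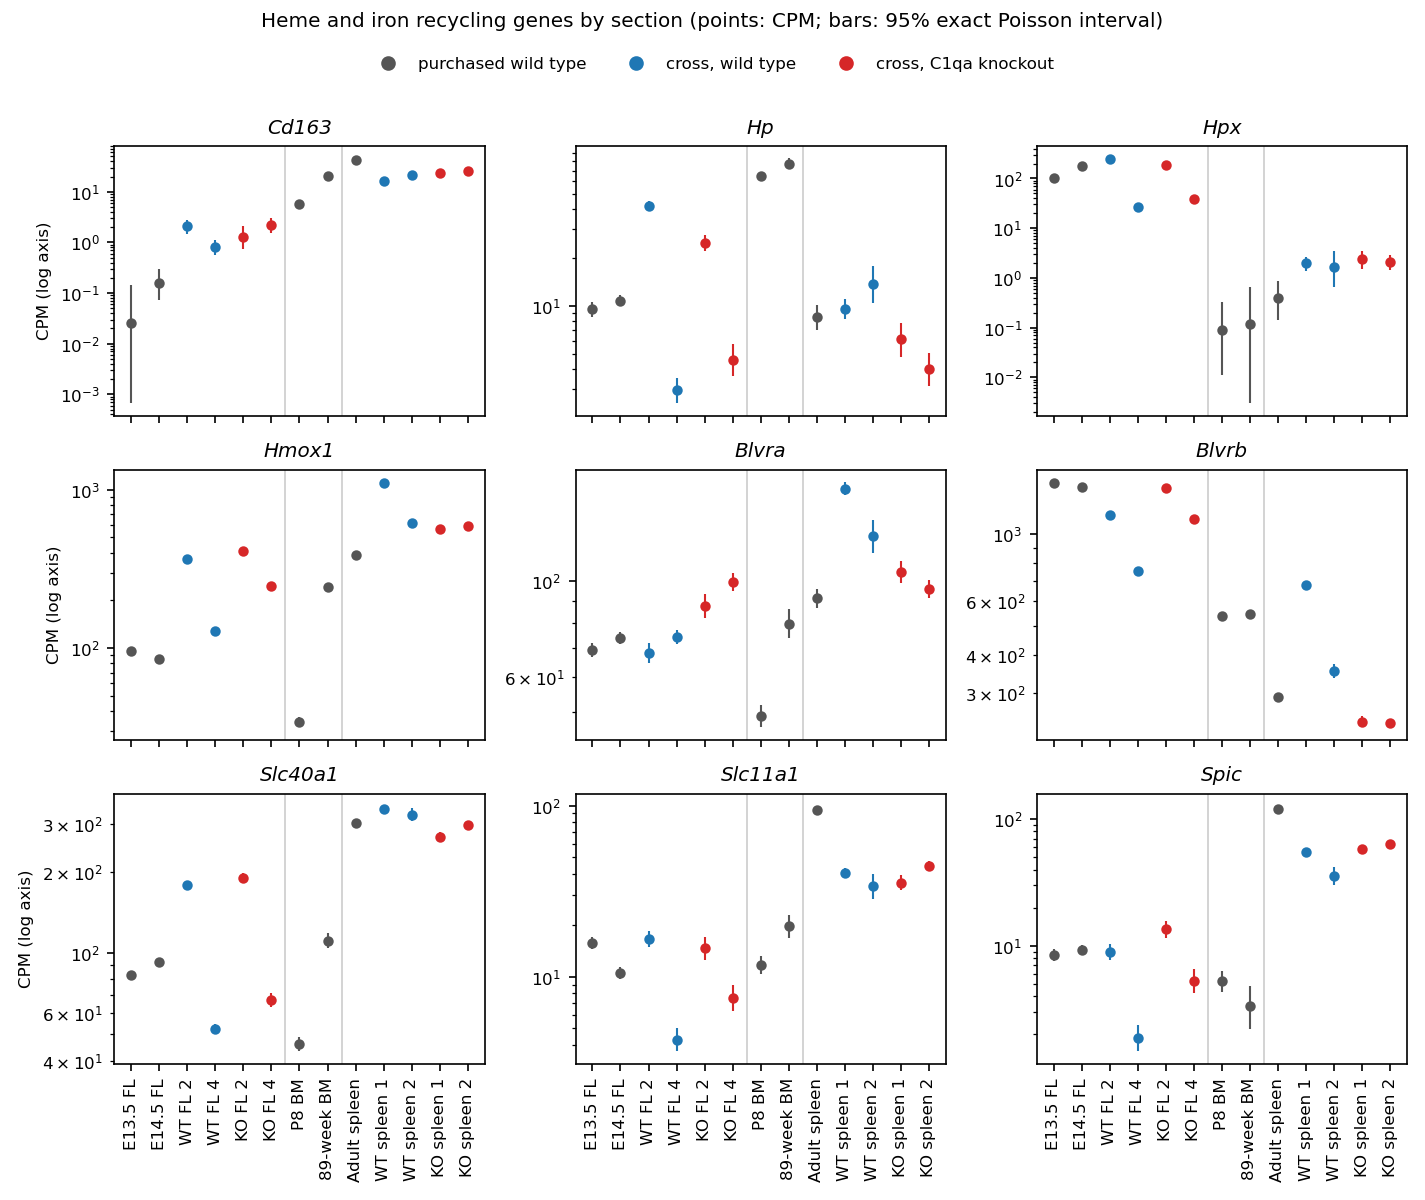
CPM of each gene (log axis) in the 13 sections with at least 50 kept spots, FL for fetal liver and BM for bone marrow, with 95% exact Poisson intervals that cover counting error only. Cd163, Slc40a1, Slc11a1 and Spic were higher in the 5 spleens than in the 6 fetal livers, and Hpx and Blvrb lower.

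The EDTA bone marrow was too shallow for most of the list. Its 15 kept spots held 65 Blvrb, 7 Hmox1, 4 Hp, 4 Blvra, 2 Hpx, 2 Slc40a1 and 1 Cd163 UMIs, and none of Slc11a1 or Spic, which allows up to 80.7 CPM. Between the other bone marrow sections, Hmox1 was 7.20-fold, Cd163 3.61-fold and Slc40a1 2.41-fold higher at 89 weeks than at P8. Over the 314 P8 spots that took 0.5% or more of their UMIs from the neutrophil list, which left out most muscle, these ratios were 5.34, 6.92 and 1.74. Spic was 0.335-fold as high at 89 weeks over those spots. These are 1 section against 1, and stage, sampling and the software version of the tables cannot be told apart.

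The purchased sections gave a first comparison of spleen with fetal liver. Of the 9 genes, 5 were at least 2-fold higher in the purchased spleen than in the E14.5 liver, against 45.8% of the 14053 genes compared, and Hpx and Blvrb were at least 2-fold lower, against 10.8%. Spic was 13.0-fold, Slc11a1 8.96-fold, Hmox1 4.48-fold and Slc40a1 3.27-fold higher. Cd163 was 266-fold higher, with 9 UMIs in the liver. The E13.5 and E14.5 livers were closer: 7 genes lay between 0.576- and 1.12-fold, Slc11a1 was 1.50-fold higher at E13.5, and Cd163 had 1 UMI at E13.5.

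In the cross, with 4 spleens and 4 fetal livers, edgeR called 4 of the 9 genes at a Benjamini-Hochberg adjusted p under 0.05, where it called 46.8% of 19087 genes. Cd163 was higher in spleen by 2.99 ± 0.47 log2 units (SE, adjusted p = 0.000761) and Spic by 1.91 ± 0.63 (adjusted p = 0.0325). Hpx had a log2 difference of -6.98 ± 1.03 (adjusted p = 0.000558) and Blvrb of -2.50 ± 0.51 (adjusted p = 0.00341). The median over the 9 genes was 0.34 and over all genes 0.10. Hp was -2.34 ± 0.89 (adjusted p = 0.0521), and passed in liver spots alone, where 52.1% of genes did, at -2.42 ± 0.74 (adjusted p = 0.0188). With pancreas spots left out of the spleens, 46.4% of genes passed, with the same 4 members and Hp, at -2.38 ± 0.88 (adjusted p = 0.0485).

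The fit scales sections by trimmed means (TMM), which took 0.72 log2 units off the spleen to liver ratio of CPM. Slc40a1 was thus 0.34 ± 0.58 (adjusted p = 0.638) and Hmox1 0.37 ± 0.53 (adjusted p = 0.571), although every spleen had more Slc40a1 CPM than every liver. With upper-quartile scaling, which moved the median of all genes to 0.51 and turned the calls from 4048 higher and 4883 lower to 4704 and 3325, 42.1% of genes and the same 4 members passed, the members in the same directions. The Spic call was lost without any 1 of the 4 spleens and without KO fetal liver 4. The 10 macrophage markers summed to 1289 to 1585 CPM in the cross spleens and 211 to 781 in the cross fetal livers. Of these markers 3 passed, all higher in spleen, against 46.8% of all genes in either direction. In bulk counts of this kind fewer macrophages and less RNA per macrophage cannot be told apart, and neither can tissue and age.

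Most other genes of the pathway that passed were lower in spleen, as were Hpx and Blvrb. The fit called 46.8% of 19087 genes, 4883 of them lower in spleen. Of 19 listed genes for heme transport, iron storage and iron sensing, 18 were in the cross tables and 13 passed, 12 of them lower in spleen. These included Tfrc, the transferrin receptor, at -3.66 ± 0.59, Steap3, the endosomal ferrireductase of erythroblasts, at -2.91 ± 0.43, Slc11a2, the endosomal iron transporter, at -1.91 ± 0.29, the iron chaperone Pcbp1 at -1.85 ± 0.25, and the iron sensor Aco1 at -1.73 ± 0.33. All 10 erythroid markers were also lower in spleen, with a median of -4.15. Their part in the pathway result was not tested.

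Within the spleen, the recycling genes lay where erythroid genes lay. Each section was cut at its median share of Alas2, the erythroid enzyme that starts heme synthesis, plus Slc4a1, the red cell anion exchanger, and counts were summed over the erythroid-rich and erythroid-poor spots. In WT spleen 2 and KO spleen 1 that median was 0, so that their 553 and 529 rich spots held at least 1 UMI of the pair and their 1093 and 762 poor spots held none. Of the 9 genes, 8 were higher in erythroid-rich spots of the 4 cross spleens, where 6.97% of 18791 genes were. The median was 1.10 log2 units over the 9 genes and -0.01 over all genes. The same 8 were higher in each of the 5 spleens, the purchased one included, which was outside the fit. With pancreas spots left out and the cut set again, the same 8 were higher, where 7.47% of genes were, and the median over the 9 genes was again 1.10.

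Cd163 showed the widest step. It stood at 24.9 CPM in rich and 8.70 in poor spots of WT spleen 1, 43.2 and 8.22 in WT spleen 2, 47.2 and 8.47 in KO spleen 1, 49.7 and 4.96 in KO spleen 2, and 60.4 and 23.2 in the purchased spleen. The fitted difference was 2.44 ± 0.21 (adjusted p = 4.82e-05). Rich spots were above poor spots in all 5, and in the cross spleens no poor value reached a rich one. The widest step, in KO spleen 2, was 49.7 and 5.21 CPM without pancreas spots, and the fitted difference was then 2.45 ± 0.20 (adjusted p = 1.14e-05). RefSeq gives Cd163 at chr6:124304636-124330529 of GRCm38.p6. The 250 bases before the transcript start of its promoter entry, chr6:124304401-124304650 on the + strand, of which the last 15 lie inside that span, were searched for the ETS core GAGGAA bound by factors such as PU.1 and SPI-C, the antioxidant response core TGANNNNGC and the GATA motif AGATAA on both strands. These motifs are in 23.3%, 35.2% and 9.99% of 32851 promoters of the same length, and none was in the Cd163 window, shown here with the other window without a match, that of Spic, chr10:88683024-88683273 on the - strand.
Cd163: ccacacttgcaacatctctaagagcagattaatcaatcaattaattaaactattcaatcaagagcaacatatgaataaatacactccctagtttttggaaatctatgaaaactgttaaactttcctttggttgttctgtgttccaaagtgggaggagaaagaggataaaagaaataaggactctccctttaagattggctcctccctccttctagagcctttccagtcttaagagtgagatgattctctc
Spic: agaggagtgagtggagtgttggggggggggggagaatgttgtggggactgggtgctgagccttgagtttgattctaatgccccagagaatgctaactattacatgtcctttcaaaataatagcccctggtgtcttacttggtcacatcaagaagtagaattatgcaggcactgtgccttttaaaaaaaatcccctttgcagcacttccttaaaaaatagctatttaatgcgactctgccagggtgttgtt

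The heme-degrading genes followed. Hmox1 was 1634 CPM in rich and 639 in poor spots of WT spleen 1, 1015 and 387 in WT spleen 2, 989 and 286 in KO spleen 1, 1037 and 187 in KO spleen 2, and 511 and 246 in the purchased spleen. The fitted difference was 1.79 ± 0.15 (adjusted p = 3.66e-05). Blvrb was 1084 and 334 CPM in WT spleen 1, 656 and 180 in WT spleen 2, 333 and 182 in KO spleen 1, 324 and 163 in KO spleen 2, and 353 and 223 in the purchased spleen. Its difference was 1.39 ± 0.17 (adjusted p = 0.000372), with the rich spots of both WT spleens above those of the KO spleens. Blvra differed by 0.59 ± 0.10 (adjusted p = 0.00230).

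Of the transporters, Slc40a1 was 482 CPM in rich and 218 in poor spots of WT spleen 1, 500 and 223 in WT spleen 2, 443 and 154 in KO spleen 1, 519 and 103 in KO spleen 2, and 402 and 194 in the purchased spleen. Its fitted difference was 1.58 ± 0.15 (adjusted p = 9.16e-05), and its rich values lay within a narrow range in the 4 cross spleens. Slc11a1 differed by 0.98 ± 0.12 (adjusted p = 0.000378) and Spic by 1.10 ± 0.11 (adjusted p = 0.000112). Hp differed by 0.60 ± 0.14 (adjusted p = 0.0153) and lost its call without WT spleen 1 or WT spleen 2, at estimates of 0.62 and 0.58. DESeq2 gave Hp no adjusted p, with an estimate of 0.57 (unadjusted p = 0.0192). Hpx, at 7 to 39 UMIs per cross spleen, was 0.55 ± 0.26 (adjusted p = 0.194).

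The windows of Blvrb, chr7:27447728-27447977, and Slc11a1, chr1:74374953-74375202, both on the + strand, are shown as examples of windows with motif matches, which are in capitals. Blvrb had 1 match to the antioxidant response core, and Slc11a1 had 1 match to it and 1 to the ETS core. Of the Slc11a1 window, 189 of 250 bases lie inside the gene as RefSeq spans it from 74375014, and both matches are in that stretch. The antioxidant response core also had 1 match each in the windows of Hpx and Blvra, and 2 in the window of a further Blvrb start, which lies inside the gene. A match describes the letters and is not evidence of binding.
Blvrb: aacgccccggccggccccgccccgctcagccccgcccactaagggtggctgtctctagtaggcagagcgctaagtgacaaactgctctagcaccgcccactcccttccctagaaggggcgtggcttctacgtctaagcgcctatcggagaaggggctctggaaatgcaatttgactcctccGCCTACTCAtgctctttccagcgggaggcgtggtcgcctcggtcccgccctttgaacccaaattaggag
Slc11a1: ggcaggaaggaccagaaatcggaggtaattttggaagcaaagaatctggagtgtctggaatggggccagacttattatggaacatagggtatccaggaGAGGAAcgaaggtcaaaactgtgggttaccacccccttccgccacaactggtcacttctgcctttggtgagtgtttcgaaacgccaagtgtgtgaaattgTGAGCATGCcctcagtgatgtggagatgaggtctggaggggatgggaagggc

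Erythroid-rich spots of the spleen also held more macrophage and neutrophil markers. The macrophage list summed to 1698 to 2438 CPM in rich and 958 to 1440 in poor spots over the 5 spleens, and 9 of its 10 genes were higher, with a median of 0.93 log2 units. The neutrophil list summed to 119 to 1313 CPM in rich and 52.2 to 400 in poor spots, and the lymphocyte list was lower in rich spots of every spleen. Pancreas markers differed most in KO spleen 2, at 4937 CPM in rich and 44581 in poor spots, against 3952 and 3873 in KO spleen 1, 945 and 941 in WT spleen 2, 53.1 and 59.4 in WT spleen 1 and 1.63 and 1.09 in the purchased spleen. The part of these markers in the result was not tested. Over all genes 6.97% were higher in rich spots. Of the 18 pathway genes 6 were higher and none lower, among them the heme transporter Slc48a1 at 0.97 ± 0.10, transferrin (Trf) at 1.05 ± 0.11, Steap3 at 1.07 ± 0.16, the ferritin receptor of autophagy Ncoa4 at 0.69 ± 0.12 and the hemopexin receptor Lrp1 at 0.66 ± 0.15.

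In fetal liver the same split gave smaller steps by the median over sections, also of the erythroid pair itself. In WT fetal liver 4, however, Hpx stepped by 5.37 and Blvrb by 4.46 log2 units, more than in any spleen. Alas2 stepped by a median of 0.77 and Slc4a1 of 0.81 log2 units of CPM over the 6 livers, against 3.71 and 3.20 over the 3 spleens whose poor spots held the pair. The part of this gap in the differences between tissues was not tested. Of the 9 genes all estimates were positive, with a median of 0.75 against -0.01 for all genes, and none passed by edgeR, where 2.78% of 19088 genes did. At an unadjusted p under 0.05 there were 6 of the 9, and 5004 of the 19088 genes. DESeq2, which called 12.2% of genes, called 4 of the 9 (Hmox1, Blvra, Blvrb and Slc40a1). Hmox1 was 395 CPM in rich and 328 in poor spots of WT fetal liver 2, 443 and 380 in KO fetal liver 2, 105 and 86.1 at E13.5 and 89.5 and 80.9 at E14.5. In the livers numbered 4 it was 175 and 64.2 CPM in WT and 342 and 126 in KO. The step was wider in the sections that were partly not liver, where the median spot held 0.00651% and 0.0937% of UMIs from the erythroid pair against 0.309% and 0.338% in the livers numbered 2.

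Within liver spots alone, edgeR called 3 of the 9 genes, where it called 5.21% of genes and 2.37% of genes higher. These were Hmox1 at 0.45 ± 0.08 (adjusted p = 0.0202), Blvrb at 0.53 ± 0.11 (adjusted p = 0.0267) and Slc40a1 at 0.35 ± 0.08 (adjusted p = 0.0402). The difference between tissues was then tested as an interaction over the 8 cross sections, a test added after the values were seen. The step of Cd163 was larger in spleen by 2.04 ± 0.42 (adjusted p = 0.0155), the 1 member called, where 10.6% of 19174 genes were. Estimates for Hp, Hpx, Blvra and Blvrb lay the other way. On leaving out each section they ran from -1.61 to -0.20 for Hpx and from -0.37 to -0.012 for Blvra. Those of Hp ran from -0.29 to 0.074 and those of Blvrb from -1.16 to 0.29. All of these genes had positive estimates within liver spots. In liver spots alone 5 members passed, where 8.13% of genes did, all with a larger step in spleen: Cd163 by 2.09, Hmox1 by 1.34, Slc40a1 by 1.22, Slc11a1 by 0.86 and Spic by 0.76. With pancreas spots also left out the same 5 passed, where 8.34% of genes did, and with pancreas spots alone left out Cd163 was again the 1 member called, where 10.4% of genes were.

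**Figure D2:**
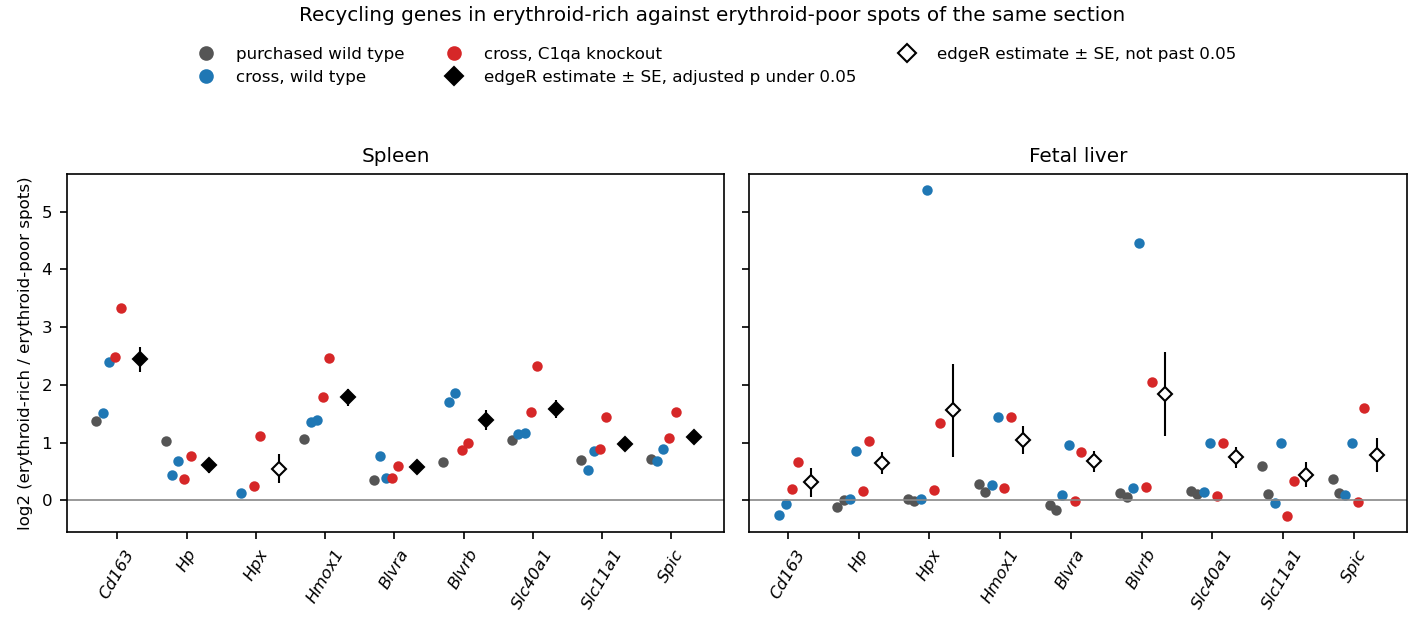
Log2 ratio of CPM in erythroid-rich to erythroid-poor spots, 1 point per section (not drawn where either side held 3 or fewer UMIs), and the edgeR estimate ± SE over the 4 cross sections of each tissue as diamonds, filled where the adjusted p was under 0.05. In spleen every drawn point lies above 0, and in fetal liver the 2 partly non-liver sections lie apart for Hpx and Blvrb.

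Across single spots the genes divided by tissue. Pearson r was taken within each section between the log value of each gene and the mean of Alas2 and Slc4a1, as a description, since spots of a section share a library and neighbouring cells. Of 117 gene and section pairs, 53 had r of at least 0.2, or 45.3%, against 2.89% of 245819 pairs over all genes. In spleen these were 26 of 45 (background 1.42%), in fetal liver 21 of 54 (3.78%), or 12 of 54 within liver spots, and in bone marrow 6 of 18 (4.05%). Thinned to 2000 UMIs per spot, 21 pairs of 112 were left, and 8 of 117 when each spot was taken relative to its adjacent spots. The shares over all genes count every gene with at least 1 UMI in a section. They were not matched to the members for level, while fewer pairs reached 0.2 after thinning. The part of level in the gap to these shares was not tested. The share over all genes was taken over all kept spots only, so the thinned, adjacent-spot and liver-spot counts have none beside them. In fetal liver that share was 9.22% in WT 4 and 8.09% in KO 4, and 0.701% to 1.97% in the other livers.

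In spleen, 4 genes had r of at least 0.2 in each of the 5 sections. Hmox1 had a mean r of 0.571 (0.416 to 0.747), Blvrb 0.531 (0.345 to 0.814), Slc40a1 0.475 (0.288 to 0.696) and Cd163 0.311 (0.214 to 0.497). Spic reached 0.2 in 3 sections, with a mean of 0.229, Slc11a1 in 2 with 0.187 and Blvra in 1 with 0.172. Hp and Hpx had means of 0.0582 and 0.0258. KO spleen 2 held the highest r of Hmox1, Slc40a1, Cd163, Slc11a1 and Spic, and WT spleen 1 that of Blvrb and Blvra.

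Without pancreas spots the same 4 genes had r of at least 0.2 in each spleen, with means of 0.572, 0.518, 0.486 and 0.321.

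In fetal liver Blvrb led, with a mean r of 0.690 (0.322 to 0.964) and at least 0.2 in 6 of 6 sections, and within liver spots 0.515 (0.217 to 0.905), again in 6 of 6. Hmox1 reached 0.2 in 5 with a mean of 0.365, and in 3 with 0.193 within liver spots. Slc40a1 reached it in 4 with 0.252, and in 3 with 0.181 within liver spots. Hpx had a mean of 0.291 that came to 0.033 within liver spots. Cd163 had 0.0152, with at most 42 UMIs per section. In bone marrow Blvrb had r of 0.761 at P8 and 0.280 at 89 weeks, Hp 0.420 and -0.0693, and Spic 0.250 and 0.0507. The P8 section was 24.7% muscle spots, and over its 314 marrow spots r was 0.676 for Blvrb, 0.123 for Hp and 0.186 for Spic. With marrow spots alone, 4 of 17 pairs in bone marrow had r of at least 0.2, with no share over all genes taken for these spots.

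Blvrb followed the erythroid pair more closely than the macrophage list, in 6 of 6 fetal livers, 4 of 5 spleens and both bone marrow sections. Its mean r in fetal liver was 0.690 with the pair and 0.127 with the list, or 0.515 and 0.0415 within liver spots. Slc40a1 and Spic were the reverse in spleen, with a higher r for the macrophage list in 4 of 5 sections each, at means of 0.553 and 0.303. Hmox1 had means of 0.571 with the pair and 0.630 with the list. The pair and the list differ in counts per spot between tissues and sections, and sparse counts lower r. The part of this in which r was the higher was not tested.

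**Figure D3:**
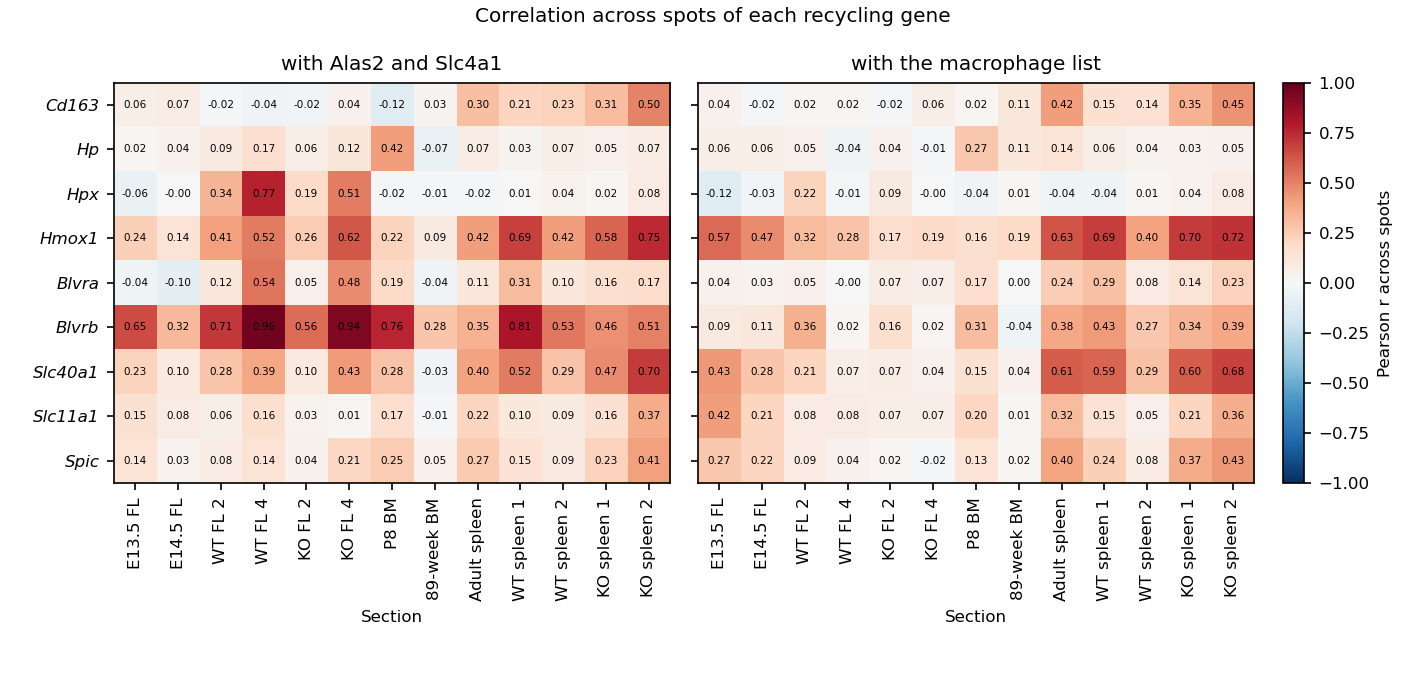
Pearson r across the kept spots of each section between each gene and the mean of Alas2 and Slc4a1 (left) or the mean of 10 macrophage markers (right), with the value printed in each cell. Hmox1, Blvrb and Slc40a1 are darkest in the spleens, and Blvrb alone stays high with the erythroid pair in all fetal livers.

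The genes most like each member across spots were found among 5449 genes in spleen and 6528 in fetal liver with at least 0.1 UMIs per spot. In spleen the 3 globin genes Hba-a2, Hbb-bs and Hbb-bt were the closest to Hmox1 (mean r over 5 sections 0.716, 0.697 and 0.661), and also to Blvrb (0.542, 0.542 and 0.525), Cd163 (0.347, 0.345 and 0.340) and Blvra (0.198, 0.194 and 0.183). Slc40a1 was closest to Hmox1 (0.605), Hba-a2 (0.605) and Hbb-bs (0.594). Spic was closest to Hmox1 (0.304), Hba-a2 (0.294) and Hbb-bs (0.288), and Slc11a1 to Hba-a2 (0.235), Hmox1 (0.223) and Hbb-bs (0.223). At least 2 of these globin genes thus recur for 7 of the 9 genes in spleen. How often they do so for the other genes compared was not counted, so this recurrence is not a trait of the list.

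In fetal liver over 6 sections, Blvrb was closest to the carbonic anhydrase Car2 (0.751), Hbb-bt (0.708) and Hbb-bs (0.686), and Hmox1 to Hbb-bt (0.379), Hba-a2 (0.374) and Hbb-bs (0.371). Blvra was closest to the erythroid metabolic genes Pklr (0.238), Glrx5 (0.234) and Alad (0.233), and Slc40a1 to Hmox1 (0.266), Hbb-bt (0.262) and the cathepsin Ctsb (0.262). Slc11a1 was closest to the macrophage protein Cd5l (0.151), Hmox1 (0.123) and Sirpa (0.115), and Spic to Hmox1 (0.123), Cd5l (0.113) and Tmcc2 (0.109). Hp was closest to the neutrophil genes S100a9 (0.225), S100a8 (0.212) and Camp (0.185). Hpx was closest to the hepatocyte genes Apoa1 (0.485), Afp (0.482) and Alb (0.480). Within liver spots, over 6388 genes, the 3 genes most like Hmox1 were instead the macrophage genes Cd5l (0.326), Fcna (0.323) and Marco (0.292). Blvrb stayed closest to Car2 (0.589), Hbb-bt (0.540) and Hbb-bs (0.516), Hpx to Afp (0.327), Alb (0.327) and Apoa1 (0.319), and Hp to S100a9 (0.209). Over all kept spots, Hp in spleen and Cd163 in fetal liver had no gene above 0.101 and 0.0615, and Hpx in spleen none above 0.0640.

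Loss of C1qa was compared within the spleen, where C1q is made by macrophages. Of the 9 genes, 4 passed, where edgeR called 20.6% of 18895 genes: Cd163 and Spic were higher and Blvrb and Hp lower in KO. The median was 0.03 over the 9 genes and -0.08 over all genes. TMM scaling added 0.26 log2 units to the KO to WT ratio of CPM, so that CPM and the fit differ by this amount.

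Cd163 was 16.2 and 21.1 CPM in WT and 23.9 and 26.0 in KO spleens, 18.6 ± 3.4 against 24.9 ± 1.5 (SD, n = 2), with a fitted difference of 0.72 ± 0.20 (SE, edgeR adjusted p = 0.0170). Spic was 45.5 ± 13.8 against 60.8 ± 4.1 CPM (SD, n = 2), at 0.65 ± 0.20 (edgeR adjusted p = 0.0272). The groups did not overlap for either gene. With upper-quartile scaling, which moved the median of all genes to -0.37 and the calls from 2603 higher and 1283 lower to 1197 and 4400, 29.6% of genes passed. Neither Cd163 nor Spic was among them, and the 4 members called (Hp, Hmox1, Blvra and Blvrb) were all lower in KO.

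Blvrb was 682 and 354 CPM in WT and 242 and 239 in KO spleens, 518 ± 231 against 240.3 ± 2.4 (SD, n = 2), with a difference of -0.85 ± 0.24 (SE, edgeR adjusted p = 0.0171). Hp was 11.7 ± 2.9 against 5.07 ± 1.51 CPM (SD, n = 2), at -0.92 ± 0.29 (edgeR adjusted p = 0.0312). All KO values of both genes lay below the WT values. The erythroid markers summed to 984 and 490 CPM in WT against 100 and 157 in KO spleens, with 10 of 10 lower, and the neutrophil markers to 693 and 627 against 85.3 and 141, with 10 of 10 lower. Across spleen spots Blvrb was closest to globin genes and Hp to S100a9, and the part of these cells in both differences was not tested.

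The other 5 genes did not pass. Hmox1 was -0.32 ± 0.24 (adjusted p = 0.308), Blvra -0.28 ± 0.17 (adjusted p = 0.206), Slc40a1 0.03 ± 0.18 (adjusted p = 0.898), Slc11a1 0.36 ± 0.19 (adjusted p = 0.162) and Hpx 0.50 ± 0.43 (adjusted p = 0.382). Hmox1 CPM of WT spleen 1 was apart from the other 3 spleens, and without that section its estimate was 0.16. The macrophage markers summed to 1585 and 1289 CPM in WT and 1295 and 1438 in KO spleens, overlapping. Of the 10, 2 were called higher and 1 lower, where 20.6% of all genes were called.

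The calls depended on single sections. Without KO spleen 2 none of the 9 genes passed, while 240 genes in all did (1.27%). Without WT spleen 1 Hp and Spic passed (14.6% of genes), without KO spleen 1 Cd163, Hp and Spic (26.1%), and without WT spleen 2 Cd163, Hmox1, Blvra and Blvrb (19.7%). DESeq2 called 14% of genes, and Cd163 and Spic of the 9. With spots of at least 0.5% pancreas UMIs left out, the same 4 members passed as over all spots (22% of genes).

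The split of spots was then applied to the genotype difference, also after the values were seen. The cut was set within each section, so rich spots were not alike between genotypes. Erythroid markers in rich spots summed to 1808.5 and 1114 CPM in WT spleens 1 and 2, and 181 and 292 in KO spleens 1 and 2. The part of this in the differences that follow was not tested. In erythroid-rich spots Cd163 (0.77 ± 0.22), Spic (0.71 ± 0.21), Hp (-1.02 ± 0.31) and Blvrb (-1.28 ± 0.23) passed, where 23.8% of genes did. In erythroid-poor spots only Hmox1 passed, at -0.82 ± 0.22 (adjusted p = 0.0211), where 12.6% of genes did, and Cd163 was at -0.06 ± 0.31. Without pancreas spots the same 4 passed in rich spots (25.6% of genes) and Hmox1 in poor spots (14.1%). The step from poor to rich spots of Blvrb was smaller in KO than in WT spleens, with an interaction of -0.97 ± 0.13 (adjusted p = 0.000448), the 1 member called where 2.35% of 18791 genes were. It passed without each section in turn. The steps of Hmox1 (0.64 ± 0.17, adjusted p = 0.0742), Cd163 (1.03 ± 0.29, adjusted p = 0.0836) and Slc40a1 (0.66 ± 0.19, adjusted p = 0.0998) did not pass, and without KO spleen 1 they did, together with Spic, Slc11a1 and Blvrb, where 4.4% of genes did. They also passed without pancreas spots, where 4.07% of genes did, each with a larger step in KO: Hmox1 by 0.57 ± 0.15 (adjusted p = 0.0206), Cd163 by 1.05 ± 0.26 (adjusted p = 0.0150) and Slc40a1 by 0.62 ± 0.15 (adjusted p = 0.0152), with Blvrb at -1.06 ± 0.13 (adjusted p = 6.59e-07).

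Of the 18 other pathway genes, 5 passed between genotypes in spleen, where 20.6% of 18895 genes did. Tfrc was at -1.13 ± 0.20 and Steap3 at -0.94 ± 0.21, while the ferroxidase ceruloplasmin (Cp) was at 1.16 ± 0.23 and the iron chaperones Pcbp1 and Pcbp2 at 0.60 ± 0.17 and 0.73 ± 0.20. Alas2 and Slc4a1 were lower in KO, at -1.54 ± 0.42 and -3.16 ± 0.29. Alas2 was 941 ± 800 against 267 ± 129 CPM (SD, n = 2), so that the WT spleens differed widely between themselves.

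In fetal liver no member passed between genotypes. edgeR called 0% of 18986 genes, with 138 at an unadjusted p under 0.05 and none of these a member, and DESeq2 called 7 genes (0.0369%) and no member. C1qa itself was at -10.25 with an adjusted p of 1.00, so that this fit could not call even the deleted gene. With the dams as blocks, 157 genes (0.827%) passed and still no member, and in liver spots 1 gene (0.00544%), not a member. Estimates ran from -0.87 ± 1.44 for Hp to 0.54 ± 1.11 for Spic, and the SE was 0.51 for Blvra, the lowest of the 9. Hmox1 was 245 ± 166 CPM in WT and 330 ± 115 in KO livers (SD, n = 2), and Slc40a1 116 ± 90 and 128 ± 87, with the livers of one dam apart from those of the other in both genotypes. Dam cannot be told apart here from liver content and depth. Hepatocyte spots were 94.4% (WT) and 96.6% (KO) in the livers numbered 2, and 29.8% and 62.3% in those numbered 4. Median UMIs per kept spot were 8716 and 5170 against 46654 and 28497.

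**Figure D4:**
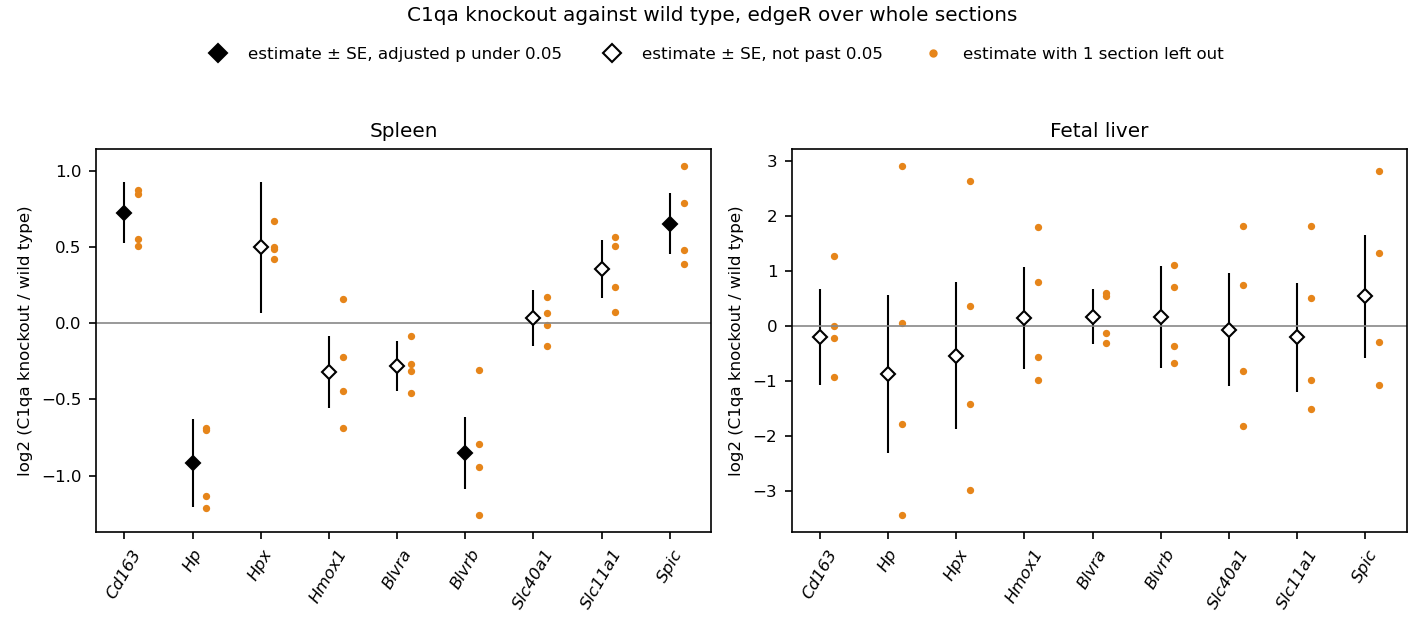
Log2 difference of KO from WT for each gene in spleen (left) and fetal liver (right, on a wider axis), as edgeR estimate ± SE over 2 sections per genotype, filled where the adjusted p was under 0.05, with the estimates after leaving out each section as small points. In fetal liver the small points lie on both sides of 0 for every gene, and in spleen for Hmox1 and Slc40a1 only.

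The genotype effects of spleen and fetal liver were compared as an interaction over the 8 cross sections. edgeR called 0 of the 9 genes and 0% of 19180, with 2018 genes at an unadjusted p under 0.05 and no member among them, and DESeq2 called 9 genes and no member. No gene passed in liver spots or without pancreas spots of the spleens. The Blvrb effect was lower in spleen than in fetal liver by an estimate of -1.04 ± 0.94 (adjusted p = 0.614). With a term for the dams of the fetal livers, 7.35% of genes passed and no member, Blvrb being at -1.06 ± 0.43 (adjusted p = 0.110).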

How the data were processed

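The authors prepared 14 Visium libraries from formalin-fixed tissue and deposited raw UMI counts per gene and spot, with no normalization. The submitters' processing notes name Space Ranger and mm10, and headers name Cell Ranger 4 (4 sections) and spaceranger 2.1.1, 3.1.2 and 4.0.1 (1, 1 and 8). Deposited spot positions (other values) gave tissue and neighbours. Symbols were matched as listed. mm10 is the same assembly as GRCm38, the build of the RefSeq promoter table, which held 6 of the 9 genes.

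Spots in tissue with at least 1000 genes were kept. CPM is a gene's count per 1000000 UMIs of kept spots, and intervals are 95% exact Poisson limits, for counting error only. A count of 0 was read against 3 counts. Counts summed per section, or per erythroid-rich and erythroid-poor part of a section with section as a block, were tested with edgeR 4.0.16 quasi-likelihood F tests (TMM, filterByExpr, R 4.3.3, limma 3.58.1), Benjamini-Hochberg over all genes. SE is the log2 difference over the square root of F. DESeq2 1.42.0, upper-quartile scaling, no filter, other spots and single sections left out were alternatives. The split without pancreas spots, the tissue comparisons without them, likeness within liver spots and the interactions with the split were added after seeing the data. For r, spots were scaled to 6000 counts, log2 of the value plus 1. Python 3.11.15 was used. Scripts were tested on simulated data.

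The genes named were the 9 members in every comparison, C1qa, Alas2 and Slc4a1, at most 5 pathway genes past the threshold by adjusted p, and the 3 genes most like each member. Members and lists were chosen with earlier results of these data known. The pathway list was Slc48a1, Flvcr1, Fth1, Ftl1, Cp, Heph, Slc11a2, Steap3, Ncoa4, Bach1, Nfe2l2, Lrp1, Tfrc, Trf, Ireb2, Aco1, Pcbp1, Pcbp2 and Hamp, and Ftl1 was not in the cross tables. Deviations from genotype means of fetal livers from the same dam, as the study's methods give it, correlated at 0.759. Spleen numbers are not said to pair mice. Where the labels do not say that sections come from separate mice, as in the spleens, p-values measure only the spread between sections. Off-tissue spots of the purchased tables entered no comparison.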

Additional observations from a re-analysis of the deposited data

Results flagged for a closer look

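Spots outside tissue, which entered no comparison, held members above the 3 counts taken as a floor. These were 8 of 9 genes in the E14.5 liver, P8 bone marrow, purchased spleen, 89-week bone marrow and E13.5 liver, and 2 of 9 in the EDTA bone marrow. Off-tissue spots held 28.4%, 32.2%, 31.1%, 49.9%, 26.7% and 7.57% of all UMIs of these sections.

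Between tissues, the Cd163 step from erythroid-poor to erythroid-rich spots differed by 2.04 log2 units, larger in spleen. Between genotypes, the Blvrb step differed by -0.97 log2 units, smaller in KO spleen, whose rich spots also held lower erythroid markers. Both differences passed a test of the interaction. No group held 4 or more sections, so that no section was examined as an outlier of its group.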

How the results depend on the processing

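The number of members called in the spleen genotype comparison (4) was 2 with DESeq2, 1 in lymphocyte-poor spots, 1 in erythroid-poor spots, with or without pancreas spots, and 0 to 4 on leaving out each section. In the fetal liver split (0) it was 4 with DESeq2, 3 in liver spots and 0 without any section. For the difference of this split between tissues (1) it was 5 in liver spots, with or without the pancreas spots of the spleens, and for its difference between genotypes (1) it was 4 without pancreas spots and 1 to 6 on leaving out each section. The pairs with r of at least 0.2 (53) came to 8 relative to adjacent spots and 21 after thinning, and to 42 to 53 under the other alternatives. No share over all genes was taken for these alternatives. Leaving out each section left 3 to 5 members called between tissues, 7 to 8 in the spleen split, and 0 for genotype in fetal liver and for genotype by tissue. Of all genes, 5744 of 19168 to 12412 of 19120 passed in these fits between tissues, and 1265 of 18849 to 2291 of 18491 in the spleen split. In lymphocyte-poor spots 3559 of 18598 genes passed for genotype in spleen. In all, 47 counts under other alternatives stayed within 1.5 times the main count and 11 did not. A count of 0 in both was taken as unchanged. The cause of these changes was not tested.

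The dam pairs the fetal livers. With the replicate block, fetal liver estimates turned to 0.20 for Cd163, 5.65e-05 for Slc40a1, 0.095 for Slc11a1, 0.038 for Alas2 and -0.038 for Slc4a1, and the genotype by tissue estimate of Spic to -0.14. In liver spots with the block they were 0.35 for Cd163, -0.012 for Blvra, -0.20 for Blvrb and -0.46 for Slc4a1, and in liver spots without it -0.15 for Blvrb and -0.20 for Slc4a1. None of these was called, and the block changed no member call in fetal liver, genotype by tissue or spleen. Spleens share only a number: with it as a block 4968 genes passed against 3886, with the same 4 members, and same-numbered deviations correlated at 0.108.

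Upper-quartile scaling turned Cd163 to 0.084, Slc40a1 to 0.085 and Alas2 to 0.073 in the fetal liver genotype comparison, Slc40a1 to -0.26 in spleen, and Blvra to 0.25 between tissues. It moved the fetal liver median over all genes to 0.22 and changed the spleen split from 1310 higher and 1054 lower to 1500 and 791. DESeq2 gave 888 and 859 there, 2269 and 375 for genotype in spleen against 2603 and 1283, and 783 and 1549 in the fetal liver split against 26 and 504. In spleen, Slc40a1 was -0.080 in lymphocyte-poor spots and -0.49 in erythroid-poor spots, and Cd163 -0.064 there, and without pancreas spots -0.45 and -0.10. In liver spots the step differed between tissues by 0.41 for Hp, 0.38 for Hpx, 0.38 for Blvra and 0.87 for Blvrb, and with pancreas spots also left out by 0.34, 0.41, 0.38 and 0.86. The genotype by tissue estimate of Hp was 0.076. The mean r of Hpx in fetal liver was -0.032 relative to adjacent spots, and the log2 ratio of Blvra between the purchased spleen and liver was -0.088 without the 10 most abundant genes.

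Leaving out single sections turned some estimates that were not called. In spleen genotype, Hmox1 ran from -0.68 to 0.16 and Slc40a1 from -0.15 to 0.17. In fetal liver the ranges were -0.92 to 1.29 for Cd163, -3.43 to 2.91 for Hp, -2.97 to 2.64 for Hpx, -0.97 to 1.80 for Hmox1, -0.30 to 0.61 for Blvra, -0.66 to 1.11 for Blvrb, -1.81 to 1.82 for Slc40a1, -1.49 to 1.83 for Slc11a1, -1.07 to 2.83 for Spic, -1.82 to 1.93 for Alas2 and -1.98 to 1.88 for Slc4a1. For genotype by tissue they were -0.54 to 1.64 for Cd163, -3.80 to 2.44 for Hp, -2.09 to 3.45 for Hpx, -2.08 to 0.63 for Hmox1, -0.85 to 0.011 for Blvra, -1.75 to 1.81 for Slc40a1, -1.41 to 1.82 for Slc11a1 and -2.09 to 1.69 for Spic. Between tissues Blvra ran from -0.37 to 0.039, in the step between tissues Hp from -0.29 to 0.074 and Blvrb from -1.16 to 0.29, and in the step between genotypes Hp from -0.26 to 0.10, Hpx from -0.065 to 0.76 and Blvra from -0.45 to 0.074. A section left alone in its group was assumed to vary like the other groups. At 7 to 39 UMIs per cross spleen and 1 to 42 per fetal liver, depth limited Hpx and Cd163, respectively.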
